A study of Mus musculus with 4 samples.

Results

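Mouse fibroblasts of the line NIH-3T3:Per2-Luc, NIH-3T3 cells that carry a luciferase driven by the *Per2* promoter, were compared 4 h after a cOS-pulse (critical oxidative stress, 5 mM H2O2 for 10 min, then fresh medium) with control cells at 0 mM H2O2, which the label also places at 4 h. Control cells received a change to fresh medium without H2O2, so both groups share the medium change, the line and the luciferase. The comparison uses 2 of the 4 one-color arrays of the series, 1 per group, and the other arrays hold cells 20 h and 32 h after the same pulse. Cells were grown to confluence with serum before the pulse, and nothing in the labels states how many cultures went into an RNA sample. Every value below therefore has n = 1 per group, no test was run, and a difference between the arrays cannot be told apart from a difference between 2 cultures. The ± that follows a log2 ratio is the error of the scanner software for the spots, which does not cover the spread between cultures.

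Hydrogen peroxide oxidizes cysteines of sensor proteins, damages DNA bases and disturbs protein folding, and cells answer through several transcription programs. Nrf2 is released from Keap1 and drives antioxidant genes, ATF4 is made when translation initiation is restrained and drives amino acid supply, p53 answers DNA damage and arrests the cell cycle, and MAP kinases and NF-kappa-B drive fast response genes and cytokines. In growing fibroblasts the genes of mitosis and DNA replication are expressed mainly by cycling cells, while contractile, YAP and matrix genes follow tension and growth factors in serum.

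Levels are log2 signals minus the 75th percentile of the array, so a level of 0 is the 75th percentile, and the brightest probe of a gene stood for the gene. The array named 22392 genes, and 12726 of them had a probe that both arrays detected as well above background (measured). The median log2 ratio of the measured genes was 0.10, and their quartiles lay at -0.42 and 0.50. Of the measured genes, 1034 (8.13%) were at least 2-fold higher at 4 h and 1223 (9.61%) were at least 2-fold lower, and a gene is called risen or fallen below only if it passed this limit. These shares are the background for the counts of each gene group. The tails were unequal, since 46 genes were at least 8-fold higher and 11 at least 8-fold lower. At 20 h the same limit was passed by 0.730% upward and 2.10% downward, and at 32 h by 1.11% and 1.49%, against the same control array. The series holds no control at these later times.

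The zero of the scale is a choice, because the arrays were scaled to a common 75th percentile. The median log2 ratio of the measured genes shifted by -0.40 when the arrays were scaled by the spike-in probes, by -0.36 by the median of all probes, by -0.28 without scaling and by -0.16 with quantile normalization. Higher genes made up 45.8% of the genes past 2-fold, but 15.3%, 17.3%, 22.3% and 34.1% under those scalings, 33.8% when only probes detected on all 4 arrays set the percentile and 35.6% with the median gene set to 0. The medians of gene groups are therefore given relative to the median of all measured genes, which a constant shift does not move. The ratios also varied with signal, though not in 1 direction. When the genes were split by mean signal into 5 equal bins, the median log2 ratio from the dimmest to the brightest bin was 0.16, -0.04, -0.06, 0.06 and 0.30. The share of fallen genes in these bins was 11.1%, 16.5%, 12.7%, 6.17% and 1.61%.

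**Figure D1:**
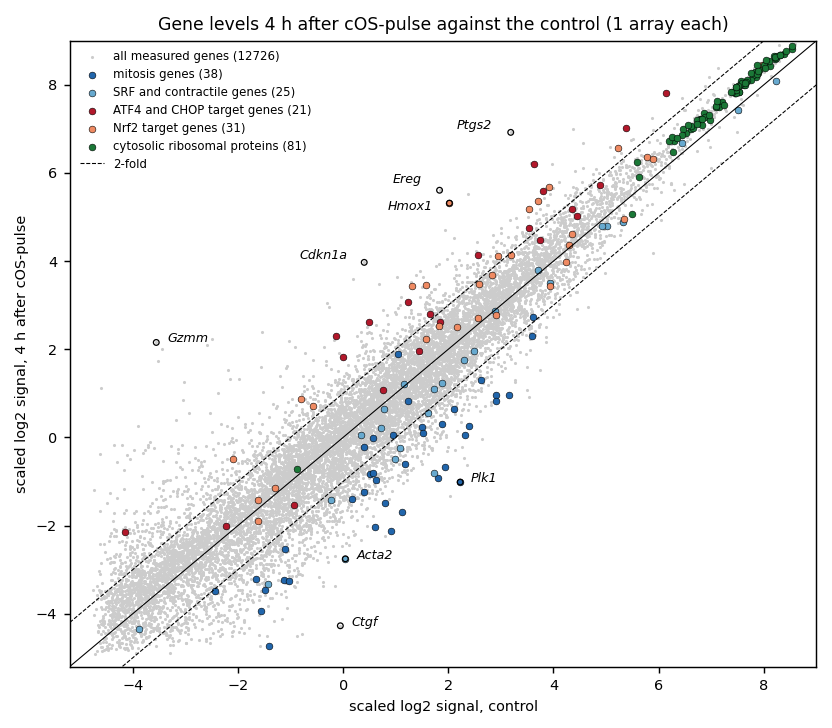
Scaled log2 signal of 12726 measured genes in the control (x axis) and 4 h after cOS-pulse (y axis), 1 array each, with 5 gene groups colored, the line of equal signal and dashed lines at 2-fold. Mitosis genes lie below the diagonal except *Ccnf*, ATF4, CHOP and Nrf2 target genes mostly above it, and cytosolic ribosomal proteins form a narrow band at the bright end.

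The largest measured rises were of genes near background in the control. *Amy1*, a salivary amylase, went from -4.61 in the control to 1.11 at 4 h, a log2 ratio of 5.72 ± 0.35. *Gzmm*, a granzyme of lymphocytes, went from -3.55 in the control to 2.15 at 4 h (5.71 ± 0.25), and *Ovgp1*, an oviduct glycoprotein, went from -3.44 in the control to 2.0 at 4 h (5.43 ± 0.25). None of these is a usual product of fibroblasts. A background model with an offset (normexp) gave 4.25, 4.83 and 4.63 for them. The integrin subunit *Itga7* rose by 4.29 on the log2 scale and the growth factor *Fgf18* by 3.89. Of the 15 largest rises, 2 were of genes already above the 75th percentile in the control. *Ereg*, the EGF receptor ligand epiregulin, went from 1.83 in the control to 5.61 at 4 h (3.77 ± 0.20), a 13.7-fold rise. *Ptgs2*, the inducible cyclooxygenase, went from 3.19 in the control to 6.92 at 4 h (3.73 ± 0.20), a 13.3-fold rise. On the 20 h array both were within 2-fold of this control, which is labelled 4 h, with log2 ratios of -0.56 and -0.28.

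The deepest falls were of genes with unlike roles. *Ctgf*, a matricellular protein and YAP target, went from -0.05 in the control to -4.28 at 4 h (-4.22 ± 0.28), and it was still -2.96 at 20 h and -3.22 at 32 h. *Bpgm*, which makes bisphosphoglycerate from a glycolytic intermediate, went from -0.79 in the control to -4.47 at 4 h (-3.68 ± 0.30). *Mtrf1*, a mitochondrial release factor, went from -0.87 in the control to -4.51 at 4 h (-3.64 ± 0.32). These 3 genes ended close to background at 4 h, and with the normexp background correction, whose offset shrinks the ratios of dim genes, they had -3.03, -2.40 and -2.25. *Plk1*, the kinase that drives mitotic entry, went from 2.22 in the control to -1.01 at 4 h (-3.24 ± 0.21) and was at -0.01 at 20 h. *Tmem119*, a membrane protein of bone-forming and microglial cells, went from 2.03 in the control to -1.33 at 4 h (-3.37 ± 0.21), and *Sdpr*, a caveolar protein, went from 3.53 in the control to 0.91 at 4 h (-2.62 ± 0.20).

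The genes were also read through 68 lists of pathways, complexes and cell type markers, of which 66 had at least 5 measured genes. A list median counted as shifted when it lay at least 0.25 from the median of all measured genes. By this limit 31 lists lay above, 14 below and 21 between. A gene can belong to several lists, and the lists are described by counts and medians, with no test.

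**Figure D2:**
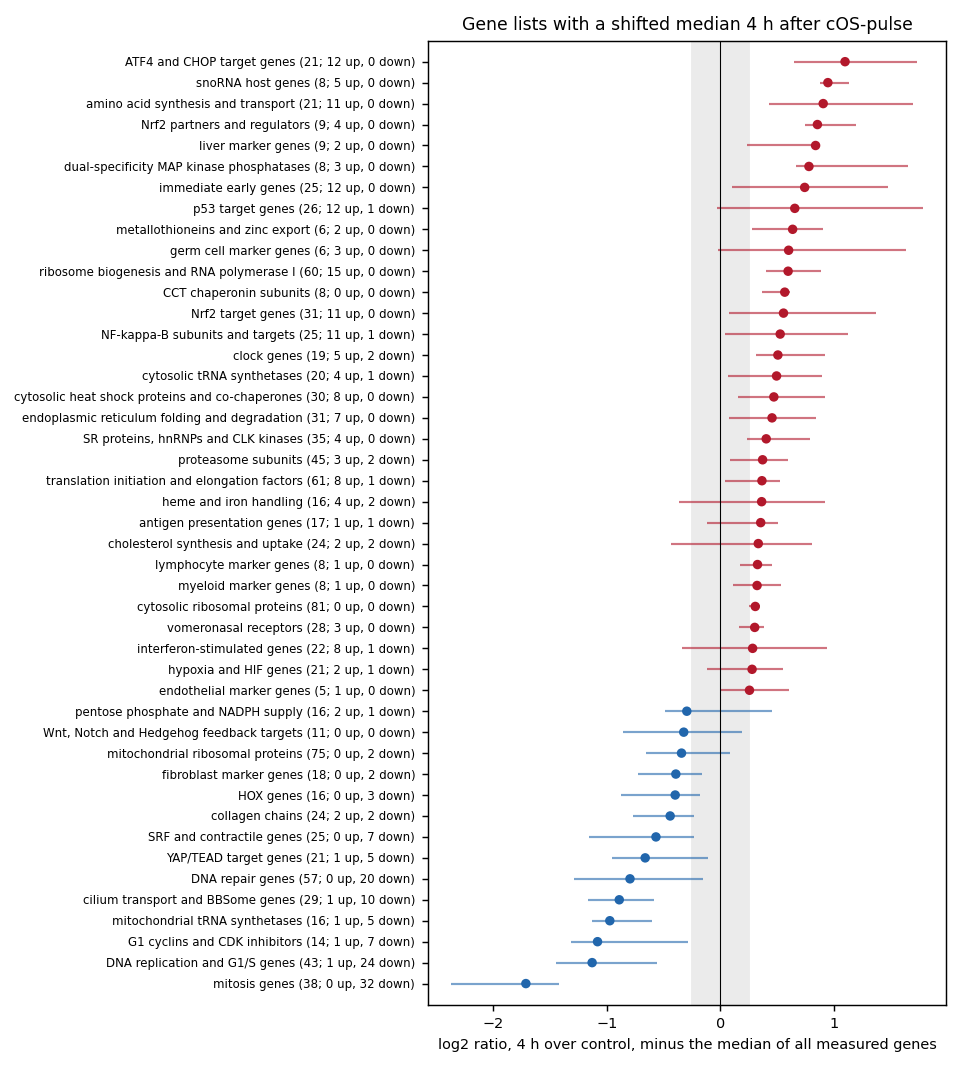
Median log2 ratio (4 h over control) of each list with a shifted median, minus the median of all measured genes, with bars for the quartiles of its measured genes and the gray band for the limit of 0.25. The labels give the number of measured genes and how many were at least 2-fold up or down, from the ATF4 and CHOP targets at the top (12 of 21 up) to the mitosis genes at the bottom (32 of 38 down).

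ATF4 and CHOP target genes had the highest list median, 1.10 above all genes, and 12 of 21 measured members rose while 0 fell. *Atf4*, the transcription factor itself, went from 6.13 in the control to 7.81 at 4 h (1.68 ± 0.20). *Trib3*, a pseudokinase that feeds back on ATF4, went from -0.14 in the control to 2.30 at 4 h (2.44 ± 0.20), and *Chac1*, which degrades glutathione, went from 1.23 in the control to 3.06 at 4 h (1.83 ± 0.20). *Sesn2*, a stress-induced inhibitor of mTORC1 signaling, went from 0.48 in the control to 2.63 at 4 h (2.15 ± 0.20). Not every member moved, since *Ddit3*, which encodes CHOP, had a log2 ratio of 0.52 ± 0.20 and *Stc2* of -0.60 ± 0.21. *Slc7a11*, the cystine importer that supplies cysteine for glutathione, was not well above background in the control and stood at 0.26 at 4 h, at least 32.4-fold higher. Such a bound divides the bright signal by whichever is greater on the other array, the signal of the dim probe or the faintest signal that the array still detected.

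Amino acid supply rose as a group: 11 of 21 measured genes of synthesis and transport were past 2-fold upward and 0 downward, and the list median lay 0.90 above all genes. *Slc7a1*, a carrier of arginine and lysine, went from 2.36 in the control to 5.52 at 4 h (3.15 ± 0.20), and *Slc3a2*, the heavy chain that pairs with several amino acid exchangers, went from 3.64 in the control to 6.20 at 4 h (2.57 ± 0.20). *Mthfd2*, a mitochondrial enzyme of folate one-carbon metabolism, went from -1.08 in the control to 1.58 at 4 h (2.66 ± 0.21), and *Asns*, asparagine synthetase, went from 3.80 in the control to 5.60 at 4 h (1.80 ± 0.20). The enzymes that charge transfer RNA split by compartment. Of the cytosolic synthetases 4 of 20 rose and 1 fell, with a median 0.49 above all genes, while of the mitochondrial ones 1 of 16 rose and 5 fell, with a median -0.97 from all genes. The tyrosyl pair did not show this split, since both lay above all genes, with 1.83 ± 0.23 for cytosolic *Yars* and 0.77 ± 0.20 for mitochondrial *Yars2*. Past 2-fold, the exceptions to the compartments were the methionyl synthetases, since cytosolic *Mars* fell (-1.11 ± 0.20) and mitochondrial *Mars2* rose (1.59 ± 0.24). By the median of all measured genes, 4 of the 20 cytosolic synthetases lay below it and 3 of the 16 mitochondrial ones above.

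Nrf2 target genes rose in part. Of 31 measured members 11 rose and 0 fell, and the median lay 0.56 above all genes. *Hmox1*, the inducible heme oxygenase, went from 2.02 in the control to 5.31 at 4 h (3.29 ± 0.20), a 9.80-fold rise. Both subunits of glutamate-cysteine ligase, the first enzyme of glutathione synthesis, rose, with 1.89 ± 0.20 for *Gclc* and 1.68 ± 0.21 for *Gclm*. *Txnrd1*, thioredoxin reductase, had 1.77 ± 0.20, *Srxn1*, which repairs oxidized peroxiredoxins, 1.67 ± 0.20, and *Sqstm1*, a cargo receptor of autophagy, 2.14 ± 0.20. *Nqo1*, a quinone reductase often used as a readout of Nrf2, went from -1.29 in the control to -1.15 at 4 h and did not pass the limit (0.14 ± 0.21). Of 9 measured partners and regulators of Nrf2, 4 rose, among them the small Maf genes *Mafk* (1.76 ± 0.20), *Mafg* (1.64 ± 0.20) and *Maff* (1.30 ± 0.20), while *Keap1* had 0.02 ± 0.20.

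The list of peroxide and superoxide scavengers did not share this shift by its median. The median lay -0.08 from all genes. Of 26 measured genes 5 rose (19.2%, against 8.13% of all measured genes) and 1 fell (3.85%, against 9.61%). The list also holds sestrins, with the risen *Sesn2* and the fallen *Sesn1*. Its risen genes *Txnrd1*, *Srxn1* and *Prdx1* are also among the Nrf2 targets counted above. *Prdx1*, a peroxiredoxin, rose (1.34 ± 0.20), as did *Sod2*, the mitochondrial superoxide dismutase (1.23 ± 0.20). Catalase (*Cat*) had 0.57 ± 0.20, *Sod1* 0.60 ± 0.20 and the glutathione peroxidase *Gpx1* -0.12 ± 0.20, all within 2-fold. Of the heme and iron list 4 of 16 rose, with the iron exporter *Slc40a1* at 1.61 ± 0.22, and 2 fell, with the constitutive heme oxygenase *Hmox2* at -1.31 ± 0.20. The zinc exporter *Slc30a1* rose (2.16 ± 0.21), and the metallothioneins *Mt1* and *Mt2*, which bind zinc and copper, had 0.70 and 0.77.

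Stretches before the start of *Gclm* and *Prdx1* hold the core of the element that Nrf2 binds with a small Maf protein, and they are shown because both genes rose. Capitals mark a match to TGACNNNGC on either strand. The *Gclm* stretch lies at chr3:122245367-122245486 on the + strand and the *Prdx1* stretch at chr4:116685410-116685529 on the + strand (RefSeq, GRCm38.p6), 5′ to 3′ in the direction of the gene. In *Prdx1* the marked bases overlap an AP-1 site, TGAGTCA.
*Gclm*: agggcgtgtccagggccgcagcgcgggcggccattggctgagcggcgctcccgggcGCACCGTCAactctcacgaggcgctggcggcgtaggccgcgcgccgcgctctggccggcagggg
*Prdx1*: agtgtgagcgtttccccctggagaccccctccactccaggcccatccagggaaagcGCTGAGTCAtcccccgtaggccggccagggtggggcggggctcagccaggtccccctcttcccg
A match of this kind stood in 12.5% of all 27025 promoters of the same length (250 bases before to 50 after the start), so it is a description of the stretch and not a binding site. Nrf2 targets that did not rise held a match too, among them *G6pdx* (-0.13), an enzyme of NADPH supply.

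Genes of protein folding sat above all genes by their list medians, and those of protein turnover less evenly. The cytosolic heat shock list had 8 of 30 risen genes and 0 fallen, and its median lay 0.47 above all genes. Its largest rises were of the co-chaperones *Dnajb6* (1.88 ± 0.20) and *Dnajb4* (1.74 ± 0.21) and the small heat shock protein *Hspb8* (1.70 ± 0.20). The constitutive *Hspa8* had 0.44 ± 0.20, *Hsph1* 0.22 ± 0.20 and *Dnajb1* 0.61 ± 0.20. In the endoplasmic reticulum 7 of 31 folding and degradation genes rose and 0 fell, with 2.12 ± 0.20 for the co-chaperone *Dnajb9* and 1.37 ± 0.20 for *Hspa5*, which encodes BiP. The 8 measured subunits of the CCT chaperonin, which folds actin and tubulin, lay between 0.39 and 0.78, none past 2-fold. Their median lay 0.57 above all genes. Of the proteasome list 3 of 45 rose and 2 fell, with 1.26 ± 0.20 for *Psmd11* and -1.19 ± 0.20 for the assembly factor *Psmg2*. These shares lie below those of all measured genes, and the median of the list lay 0.37 above all genes, but 0.200 with quantile normalization. The medians of the autophagy (0.16) and lysosome (0.15) lists were not past the limit.

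The early steps of ribosome assembly rose more often than the ribosomal proteins. Of 60 measured genes of ribosome biogenesis and RNA polymerase I, 15 rose and 0 fell, and the median lay 0.60 above all genes. The RNA helicase *Ddx21* went from 1.82 in the control to 3.94 at 4 h (2.12 ± 0.20) and *Wdr43*, a part of the small-subunit processome, went from 2.12 in the control to 3.89 at 4 h (1.77 ± 0.20). All 8 measured host genes of small nucleolar RNAs lay above 0, from 0.86 for *Snhg6* to 1.53 for *Snhg7*, and 5 of them rose. None of 81 measured cytosolic ribosomal protein genes passed 2-fold. Their quartiles lay at 0.36 and 0.45, a narrow band at the bright end of the array, where all genes also sat higher. Its median lay 0.31 above all genes, but 0.0659 with quantile normalization. Translation factors showed 8 of 61 risen genes and 1 fallen, with 1.68 ± 0.20 for *Eif2s2* and 1.29 ± 0.20 for *Eif1a*, both of the initiation machinery.

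Mitochondrial ribosomal protein genes lay on the other side of all genes. The median of 75 mitochondrial ribosomal protein genes lay -0.34 from all genes. Past 2-fold, 0 rose and 2 fell (2.67%), both shares below the 8.13% and 9.61% of all measured genes. The falls were those of *Mrpl55* (-2.47 ± 0.20) and *Mrpl40* (-1.37 ± 0.20). The nuclear-encoded subunits of oxidative phosphorylation stayed within 2-fold in all 82 measured genes, from -0.88 for *Ndufs3* to 0.63 for *Cox6c*, with a median -0.02 from all genes.

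p53 target genes rose in 12 of 26 measured members and fell in 1, with a median 0.65 above all genes. *Cdkn1a*, the CDK inhibitor p21, went from 0.40 in the control to 3.97 at 4 h by its brightest probe (3.57 ± 0.20), and its other measured probe gave 1.97. *Mdm2*, the ubiquitin ligase of p53, went from 3.82 in the control to 5.43 at 4 h (1.61 ± 0.20), *Tnfrsf10b*, a death receptor for TRAIL, from -0.58 in the control to 1.76 at 4 h (2.34 ± 0.21), and *Plk2*, a stress-induced kinase, from 1.29 in the control to 3.52 at 4 h (2.23 ± 0.20). *Bbc3*, the death gene PUMA, had -0.03 ± 0.20, and *Sesn1* fell (-1.08 ± 0.20). The apoptosis lists did not move one way. Of 28 measured genes that promote apoptosis 3 rose and 5 fell, with 1.58 ± 0.24 for the BH3 gene *Bcl2l11*, -2.99 ± 0.24 for the BH3 gene *Bmf* and -1.66 ± 0.21 for *Casp8*. Of 13 measured genes that restrain apoptosis 1 rose and 2 fell. In both lists the risen share was near the 8.13% of all measured genes, and the fallen share was above their 9.61%. The medians of the promoting and restraining lists lay -0.24 and 0.02 from all genes, both within the limit.

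Fast response genes were higher at 4 h in part. Of 25 measured immediate early genes 12 rose and 0 fell, and the median lay 0.74 above all genes. *Fosb* went from -3.18 in the control to -0.90 at 4 h (2.29 ± 0.23), *Egr1* from 1.56 in the control to 2.96 at 4 h (1.39 ± 0.20) and *Klf4* from 1.77 in the control to 3.88 at 4 h (2.11 ± 0.20), all of them transcription factors. *Fos* was detected at 4 h only, at least 4.02-fold higher, whereas *Jun* had -0.02 ± 0.20 and *Myc* 0.43 ± 0.20. Of 8 measured dual-specificity phosphatases, which switch off MAP kinases, 3 rose, and these were *Dusp10* (2.08 ± 0.20), *Dusp4* (2.06 ± 0.20) and *Dusp8* (1.65 ± 0.32).

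Several genes of secreted signals rose, and a few growth factor receptors fell. Of 26 measured cytokine and chemokine genes 9 rose and 2 fell, and of 23 growth factor genes 8 rose and 3 fell, although the medians of these lists lay only 0.23 and 0.14 above all genes. *Il6* went from -0.30 in the control to 3.04 at 4 h (3.34 ± 0.20), *Csf3*, which drives granulocyte production, from -2.38 in the control to 1.02 at 4 h (3.40 ± 0.22), and the neutrophil chemokine *Cxcl1* from 4.37 in the control to 7.0 at 4 h (2.63 ± 0.20). *Lif*, a cytokine of the interleukin-6 family, had 2.55 ± 0.21, and *Inhba*, the activin subunit, 1.85 ± 0.21. *Ccl2* had 0.63 ± 0.20, within 2-fold. The largest falls among them were of *Ccl9* (-1.77 ± 0.22) and *Angptl4* (-1.69 ± 0.20). NF-kappa-B genes and targets, a list that shares *Il6*, *Cxcl1* and *Ccl2* with the cytokines, rose in 11 of 25 and fell in 1, with 1.26 ± 0.21 for *Nfkb1* and 1.03 ± 0.20 for the feedback inhibitor *Tnfaip3*. Of 27 measured growth factor receptors 0 rose and 4 fell: *Pdgfra* (-1.55 ± 0.20), *Pdgfrb* (-1.35 ± 0.20), *Erbb2* (-1.36 ± 0.21) and *Igf1r* (-1.22 ± 0.20). The fallen share was 14.8%, against 9.61% of all measured genes, and the list median lay -0.22 from all genes, also within the limit.

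The cell cycle genes fell most. In RNA of whole cultures, fewer cells that express a gene and less of its RNA per cell cannot be told apart. Of 38 measured mitosis genes 32 fell and 0 rose, against 9.61% and 8.13% of all measured genes, and the median lay -1.71 from all genes. *Ccnb1*, cyclin B1, went from 1.12 in the control to -1.68 at 4 h (-2.80 ± 0.21). *Bub1b*, a spindle checkpoint kinase, went from -1.41 in the control to -4.72 at 4 h (-3.31 ± 0.34, and -1.85 with normexp), and *Aurka*, the spindle pole kinase, from 1.88 in the control to 0.31 at 4 h (-1.57 ± 0.20). *Kif2c*, a microtubule-depolymerizing kinesin, was detected in the control only and was at least 10.3-fold lower at 4 h. One member, *Ccnf*, had a value above 0 (0.85 ± 0.20), and *Tpx2*, *Ccnb2* and *Hmmr* were the highest of the others with -0.40, -0.58 and -0.63.

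Promoters of the mitosis genes often held the cell cycle homology region (CHR), a short element of genes expressed in G2 and mitosis. This element was added to the search after the falls had been seen. A match to TTTGAA or TTCGAA on either strand stood in 25 of the 32 measured mitosis genes with a promoter in the table (78.1%), and in 14.2% of 9683 measured protein-coding genes and 19.4% of all promoters. Of the replication genes 7 of 36 had one (19.4%). Members that did not fall past 2-fold also had a match, among them *Ccnf* (0.85), *Ccnb2* (-0.58) and *Hmmr* (-0.63). Stretches of 120 bases that end at the base before the start are shown for 3 fallen genes, with the match in capitals: *Cdc20*, the activator of the anaphase-promoting complex (-1.95 ± 0.20), at chr4:118437344-118437463 on the - strand, *Kif11*, the spindle kinesin (-2.12 ± 0.22), at chr19:37376262-37376381 on the + strand, and *Ube2c*, a ubiquitin-conjugating enzyme of mitotic exit (-1.47 ± 0.20), at chr2:164769809-164769928 on the + strand (RefSeq, GRCm38.p6).
*Cdc20*: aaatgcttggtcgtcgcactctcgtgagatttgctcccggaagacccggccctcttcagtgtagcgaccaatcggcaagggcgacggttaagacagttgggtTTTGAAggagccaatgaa
*Kif11*: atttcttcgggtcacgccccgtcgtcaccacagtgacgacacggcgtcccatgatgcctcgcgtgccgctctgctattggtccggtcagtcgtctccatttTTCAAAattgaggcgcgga
*Ube2c*: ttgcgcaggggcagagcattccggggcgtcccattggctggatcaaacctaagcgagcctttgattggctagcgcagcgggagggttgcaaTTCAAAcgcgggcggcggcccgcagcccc
These 3 genes were chosen after their values and matches were seen, and in each the match lies within 30 bases of the start.

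Genes of the G1 to S transition and of DNA replication fell in 24 of 43 measured members and rose in 1, with a median -1.13 from all genes. *Pole2*, a subunit of DNA polymerase epsilon, went from -0.88 in the control to -3.29 at 4 h (-2.41 ± 0.24), and *Tk1*, thymidine kinase, from 1.69 in the control to -0.28 at 4 h (-1.97 ± 0.20). *Mcm5*, of the replicative helicase, had -1.02 ± 0.20, and *Ccne2*, cyclin E2, was detected on neither array. Of 14 G1 cyclins, CDK inhibitors and pocket proteins 7 fell and 1 rose. The rise was that of *Cdkn1a*, and cyclin D1 (*Ccnd1*) went from 2.35 in the control to 0.86 at 4 h (-1.49 ± 0.20). Clustered histone genes, which are also made in S phase but whose main messages carry no poly(A) tail, did not fall: 2 of 38 rose, 0 fell, and the median lay 0.18 above all genes. Histone genes of a cluster are near-identical, so their probes can share targets.

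DNA repair genes fell in 20 of 57 measured members and rose in 0, with a median -0.80 from all genes. *Brca2* went from -1.78 in the control to -4.33 at 4 h (-2.54 ± 0.29) and *Xrcc2* from -2.01 in the control to -4.08 at 4 h (-2.08 ± 0.26), both of homologous recombination. *Neil3*, a glycosylase for oxidized bases, had -2.02 ± 0.36. With normexp these ratios were smaller, with -1.43 for *Brca2*, -1.16 for *Xrcc2* and -0.93 for *Neil3*, the last within 2-fold. The highest values were 0.83 ± 0.25 for *Polk* and 0.83 ± 0.21 for *Rev1*, polymerases that copy past lesions, both within 2-fold. Several of these genes are cell cycle genes too, and the part of the cell cycle in their fall was not tested.

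**Figure D3:**
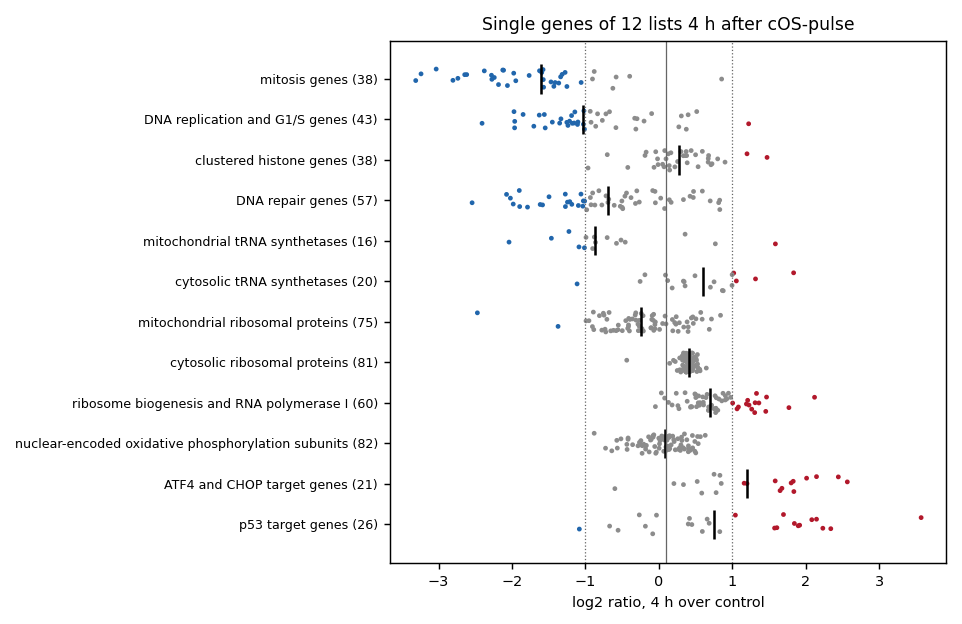
Log2 ratio (4 h over control) of each measured gene in 12 lists, with the number of genes in brackets, a black bar at the list median, dotted lines at 2-fold and a gray line at the median of all measured genes. Mitosis genes sit left of the dotted line in 32 of 38 cases, clustered histone genes do not, and cytosolic and mitochondrial tRNA synthetases lie on opposite sides of the gray line by their medians.

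Contractile genes and targets of YAP fell in part. Of 25 measured SRF and contractile genes 7 fell and 0 rose, and the median lay -0.57 from all genes. *Acta2*, smooth muscle actin, went from 0.04 in the control to -2.76 at 4 h (-2.80 ± 0.22), *Cnn2*, a calponin, from 1.72 in the control to -0.81 at 4 h (-2.53 ± 0.21), and *Myl9*, a myosin light chain, from -1.44 in the control to -3.32 at 4 h (-1.88 ± 0.24). *Tagln*, another smooth muscle gene, had -0.54 ± 0.20, and *Srf* itself -0.14 ± 0.20. Of 21 YAP and TEAD targets 5 fell and 1 rose, with a median -0.66 from all genes. They split widely: *Ctgf* had the deepest fall of all measured genes, *Ankrd1*, a repeat protein of muscle and stressed cells, went from 0.34 in the control to -2.33 at 4 h (-2.67 ± 0.21), and *Cyr61*, a close relative of *Ctgf*, had -0.25 ± 0.20.

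The 120-base stretches of *Cnn2* (chr10:79988480-79988599, + strand), *Myl9* (chr2:156775248-156775367, + strand) and *Ankrd1* (chr19:36119949-36120068, - strand; all RefSeq, GRCm38.p6) are shown for these fallen genes. Capitals mark a CArG box, the element of SRF, in *Cnn2* and *Myl9*, and GGAATG on either strand, the core of TEAD sites, in *Ankrd1*.
*Cnn2*: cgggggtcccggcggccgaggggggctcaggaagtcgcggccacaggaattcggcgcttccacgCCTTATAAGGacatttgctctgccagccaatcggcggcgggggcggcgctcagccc
*Myl9*: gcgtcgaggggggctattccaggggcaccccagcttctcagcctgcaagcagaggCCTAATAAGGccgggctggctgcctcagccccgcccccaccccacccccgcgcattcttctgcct
*Ankrd1*: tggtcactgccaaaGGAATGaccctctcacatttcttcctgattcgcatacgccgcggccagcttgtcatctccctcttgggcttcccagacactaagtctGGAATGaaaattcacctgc
A CArG box stood in 6 of 21 contractile genes with a promoter in the table (28.6%) and in 1.57% of all promoters. Of these 6 genes *Srf* and *Actg1* (-0.06) did not fall. GGAATG stood in 14.6% of all promoters, and 8 of the 15 YAP and TEAD targets with a promoter in the table held it. Only 71.4% of the measured targets had a promoter there, so no share is given. Among the 8 were *Cyr61* and others that did not fall.

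Matrix genes were past 2-fold at shares near or below those of all measured genes. Of 24 measured collagen genes 2 fell and 2 rose, with a median -0.44 from all genes, and 6 more were detected at 4 h only and 0 in the control only. The main fibrillar chains *Col1a1*, *Col1a2* and *Col3a1* had -0.71, -0.38 and -0.29, while *Col7a1*, the chain of anchoring fibrils, went from -2.20 in the control to 1.53 at 4 h (3.72 ± 0.21) and *Col18a1* from -4.41 in the control to -2.83 at 4 h (1.58 ± 0.33, but 0.89 with normexp). *Col20a1* was detected at 4 h only, at least 82.1-fold higher, the largest bound of the comparison. Of 39 matrix glycoproteins and crosslinking enzymes only *Thbs1*, thrombospondin, fell (-1.86 ± 0.21) and none rose, with a median -0.16 from all genes. The fibroblast markers, which check the label of the cells, were measured in 18 of 19 cases, with *Col1a1* at a level of 4.26, *Vim* at 6.73 and *Thy1* at 4.92 in the control. At 4 h this list was itself lower, with a median -0.39 from all genes, 2 of 18 fallen and 0 risen. Against the same control its median was -0.39 at 20 h and -0.26 at 32 h.

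Cilium genes formed a further group that was lower. Of 29 genes of intraflagellar transport and the BBSome, which carries membrane proteins in cilia, 10 fell and 1 rose, with a median -0.89 from all genes. *Bbs7* went from -0.37 in the control to -2.33 at 4 h (-1.96 ± 0.21) and *Ift172* from -1.18 in the control to -2.81 at 4 h (-1.63 ± 0.22), while *Ift20* rose (1.08 ± 0.20). HOX genes fell in 3 of 16 and rose in 0, with -1.69 ± 0.27 for *Hoxc5* (-0.90 with normexp). Zinc finger genes of the *Zfp* series, by contrast, lay near or below the background in both directions, with 17 (5.56%) of 306 risen and 23 (7.52%) fallen. Glycolysis genes had a median -0.16 from all genes with 1 risen, *Hk2* (1.55 ± 0.21), and 4 fallen of 26, among them *Pdk2*, which restrains pyruvate dehydrogenase (-2.53 ± 0.24). Lysosome genes stayed within 2-fold except *Atp6v1h* (1.62 ± 0.20).

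Clock genes rose in 5 of 19 measured members and fell in 2. Their median lay 0.51 above all genes, and from 0.44 to 0.59 over the alternatives. Of the 19 members 17 lay above the median of all measured genes. The highest log2 ratio of the list, 1.61, was that of a kinase subunit and not of a clock transcription factor or repressor. The rises of *Cry1* and *Arntl* were smaller. The repressor *Cry1* went from -4.63 in the control to -3.11 at 4 h (1.52 ± 0.35), and *Arntl*, which encodes BMAL1, from -0.08 in the control to 1.0 at 4 h (1.07 ± 0.20). Neither rise held under every alternative, since *Cry1* had 0.81 with normexp and *Arntl* 0.67 with scaling by the spike-in probes. The falls were of the PAR bZIP factors *Dbp* (-1.19 ± 0.21) and *Hlf* (-1.70 ± 0.21), and *Per1* had 0.48 ± 0.20. *Per2*, named here because its promoter drives the luciferase of the line, was not well above background in the control and was at least 1.17-fold higher at 4 h. Interferon-stimulated genes rose in 8 of 22 and fell in 1, *Ifit2* (-2.45 ± 0.21), although its neighbor in the family *Ifit1* rose (1.41 ± 0.22). Cholesterol synthesis and uptake showed 2 risen and 2 fallen genes of 24, with 1.49 ± 0.21 for *Insig1*, a retention factor of SREBP, and -1.41 ± 0.21 for *Dhcr7*, the enzyme of the last synthesis step. These shares, 8.33% each, were near those of all measured genes, while the list median lay 0.33 above all genes.

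Several marker lists of other cell types held more genes detected at 4 h only than in the control only, as did the array at large. Of the genes named on the array, 1592 (7.11%) were detected at 4 h only and 358 (1.60%) in the control only, and with a bound of at least 2-fold these were 580 (2.59%) and 187 (0.835%). Of 24 lymphocyte markers 7 were detected at 4 h only and 0 in the control only. Of 22 muscle markers 6 were detected at 4 h only and 0 in the control only, and of 26 germ cell markers 5 and 0. With the bound, these 3 lists had 3, 1 and 3 genes at 4 h only. Other lists showed no such excess, with 1 and 1 of 16 endothelial markers and 3 and 3 of 50 keratin-associated proteins. Olfactory receptors lay at the background, with 82 (7.51%) of 1092 at 4 h only and 19 (1.74%) in the control only. With the bound they had 17 and 11, and the vomeronasal receptors had 2 and 4. Many markers were measured on both arrays, 8 of the lymphocyte, 9 of the liver and 10 of the neuronal and glial list. Among measured markers *Hpx*, the heme scavenger of liver, went from -3.78 in the control to -0.29 at 4 h (3.49 ± 0.29), *Cd79a*, of the B cell receptor, from -3.36 in the control to -0.96 at 4 h (2.40 ± 0.23), and *Prm1*, a sperm protamine, from -3.40 in the control to -0.99 at 4 h (2.41 ± 0.25). With normexp *Hpx* had 2.59 and *Prm1* 1.77. These markers belong to unlike tissues. Some markers were at or near background, while the 8 measured myeloid markers had a median level of 0.27 in the control. Neither array detected *Ptprc*, the common leukocyte antigen, or *Myod1*, the muscle regulator, and *Alb*, albumin, was detected at 4 h only, with a level of -4.57. The 4 h array had more probes well above background than the control array, 59.1% against 53.4%, and the part of this difference in the counts was not tested.

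**Figure D4:**
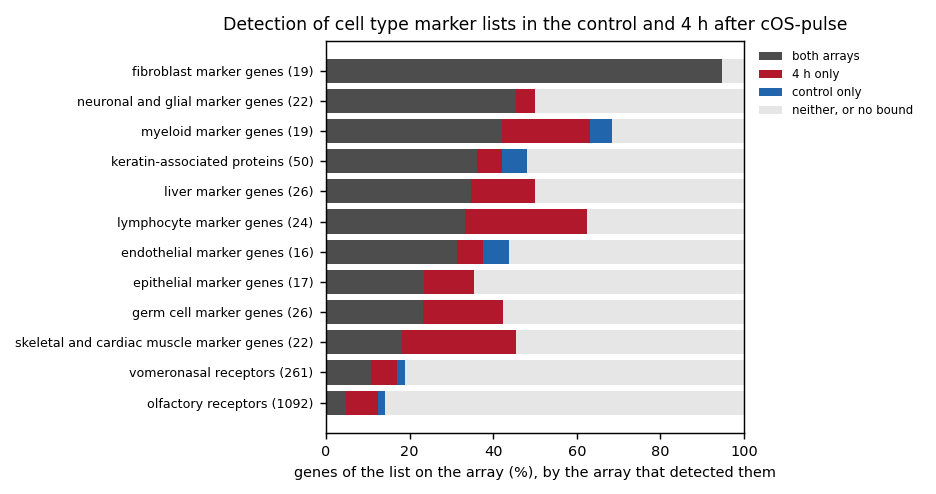
Share of the genes of each marker list (x axis, percent of its genes on the array, number in brackets) by detection, on both arrays, at 4 h only, in the control only, or on neither (or on 1 array without a bound). Fibroblast markers were detected on both arrays in 18 of 19 cases, and no list had more genes detected in the control only than at 4 h only.

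Most shifts of the lists at 4 h were smaller on the later arrays, which were set against the same control array. That control is labelled 4 h, and the series holds no unpulsed cells at 20 h or 32 h. In the later ratios the pulse therefore cannot be told apart from the longer time after the medium change. The median of the mitosis genes relative to all genes was -1.71 at 4 h, -0.11 at 20 h and -0.48 at 32 h, and that of the ATF4 and CHOP targets was 1.10, 0.08 and 0.16. Ribosome biogenesis genes went from 0.60 at 4 h to -0.33 and -0.39, to the other side of all genes. The contractile genes kept their distance, with -0.57, -0.50 and -0.50, and *Acta2* was -3.56 from the control at 20 h and -3.11 at 32 h. Cholesterol genes were the other way around, 0.33 at 4 h, 1.11 at 20 h and 1.41 at 32 h.

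**Figure D5:**
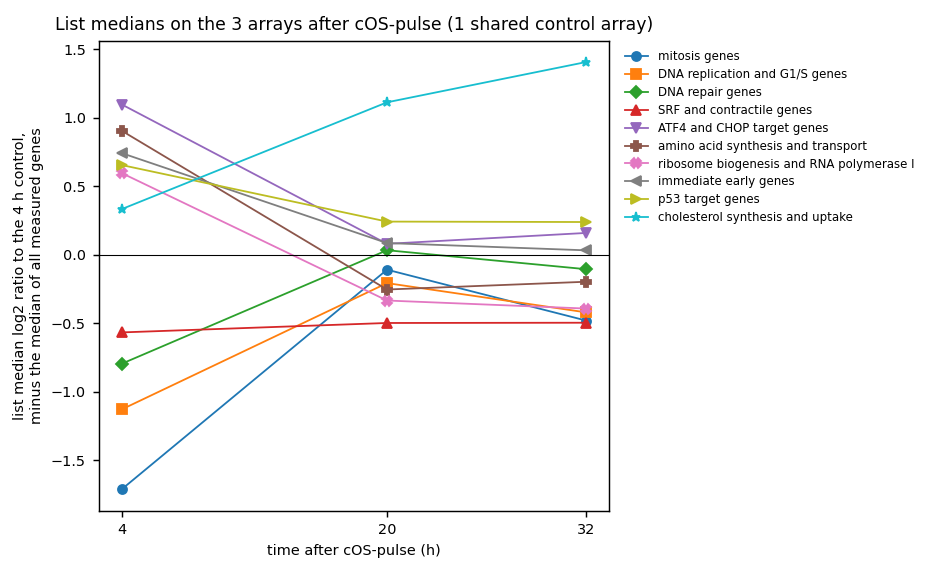
Median log2 ratio of 10 gene lists at 4 h, 20 h and 32 h after cOS-pulse (x axis, h), minus the median of all measured genes of that array (y axis), all against 1 control array. That control is labelled 4 h, and there is none at the later times. The mitosis list rises from -1.71 toward 0, the ATF4 and CHOP list falls from 1.10, and the cholesterol list climbs to 1.41.

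Different probes of a gene gave a further check of single values. Of 584 called genes with at least 2 measured probes, 516 had every measured probe on the same side of 0, 294 had every probe past 2-fold, and 7 had a probe past 2-fold in the opposite direction. Among the genes named above the probes differed for *Ddx21* (0.96 and 2.12), *Wdr43* (0.77 and 1.77), *Eif2s2* (0.64 and 1.68), *Dnajb6* (from 0.56 to 1.88), *Mt1* (0.70 and 1.90) and *Srf* (-0.14 and 0.82). For *Pdk2* the brightest probe gave -2.53 and the other -0.26, so that its fall rests on 1 probe.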

How the data were processed

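The spot intensities deposited by the authors came from Agilent Feature Extraction 10.7.3.1 on a one-color mouse array, with background subtracted by the software, and carry spot errors and flags for signals well above background, positive and significant, or outliers. Dividing those intensities by 1 constant for each array gave a further deposited table. Here the log2 intensities of the spots of a probe were averaged for 39429 probes, leaving out outlier spots (133 in the control, 125 at 4 h), and each array was set to 0 at its 75th percentile. No spot was saturated. Detection required the flag for well above background in 50% or more of the spots of a probe. Of the probes, 31375 were matched to RefSeq genes (27996 by symbol, 2814 by accession, 565 by synonym), and 8054 were not. A gene took its brightest probe. The threshold was 2-fold. Precision is limited by the number of arrays, and with 1 array per group no test or replicate block could be run.

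The members and the gene lists were chosen with earlier results of these data known. Genes were named by rule: the 15 largest rises and falls among all measured genes and among those above the 75th percentile on either array, the 10 largest bounds each way, and in each list its core members and up to 4 with the largest rise or fall. *Cdc20*, *Kif11*, *Ube2c*, *Per2*, *Alb*, *Ptprc*, *Myod1*, *Actg1* and *G6pdx* are outside it, and some genes that it names are not reported here. Motif shares over all risen and all fallen genes are not given, since under 80% of these genes had a promoter in the table, and gene span was not analysed here. The steps were tested on a simulated array made from the control array, with known shifts given only to genes with a probe above the 75th percentile. The simulated array kept the detection flags of the control. That test therefore did not cover the detection filter, the bounds or dim genes. Alternatives were 5 scalings, centring, normexp with an offset of 50 (limma 3.58.1, R 4.3.3), 3 detection or flag choices, the median over probes, thresholds of 1.5-fold and 3-fold, the deposited table and bounds. Calculations used Python 3.11.15 with numpy 2.4.6 and pandas 2.3.3.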

Additional observations from a re-analysis of the deposited data

How the results depend on the processing

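The counts of genes past 2-fold depended on the zero of the scale and on detection. Against 1034 higher and 1223 lower genes, scaling by the spike-in probes gave 437 and 2413, scaling by the median of all probes 473 and 2259, and no scaling 564 and 1965. No detection filter gave 3147 and 1841, the flag for positive and significant signals 2004 higher genes, the bounds 1614 higher genes, and thresholds of 1.5-fold and 3-fold gave 2608 and 2457 or 324 and 365. The other alternatives kept both counts within 1.5 times, and the numbers of lists above and below all genes stayed within 1.5 times under all 12 alternatives run for them. Of 45 lists past the limit of 0.25, 30 stayed past it under each of these. With quantile normalization the proteasome (0.20), heme and iron (0.14), cytosolic ribosomal protein (0.066), translation factor (0.24) and hypoxia (0.25, rounded) lists came under the limit. Without a detection filter the collagen (-0.24) and liver (0.22) lists did, and the vomeronasal receptors changed sign to -0.24. With the flag for positive and significant signals the cholesterol list had 0.17. The mitosis list ranged from -1.80 to -1.55 and the ATF4 and CHOP list from 1.06 to 1.54. Of 79 risen and 52 fallen genes named here, 63 and 48 stayed past 2-fold under every alternative, and with spike-in scaling 65 and 52 did. With normexp *Col18a1* (0.89), *Cry1* (0.81), *Hoxc5* (-0.90), *Neil3* (-0.93), *Id4* (-0.75), *Atg5* (-0.99), *Srsf10* (0.96) and *Tnfaip3* (0.98) did not, nor did *Srsf10* with the median over probes (0.92). Under at least 1 other scaling or centring *Arntl*, *Egr1*, *Eif1a*, *Hnrnpa2b1*, *Hspa5*, *Ift20*, *Maff*, *Nfkb1*, *Prdx1*, *Psmd11*, *Sod2*, *Srsf10*, *Tnfaip3* and *Vegfa* came under 2-fold, with lowest values from 0.62 (*Tnfaip3*) to 0.99 (*Egr1*). No named gene past 2-fold changed sign. No paired analysis was possible because each group has 1 array. Where the alternatives are not a shift of scale, the cause was not tested.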

Other observations

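RNA splicing factors sat above all genes. Of 35 measured SR proteins, hnRNPs and CLK kinases 4 rose at 4 h and 0 fell, and the list median lay 0.40 above the median of all measured genes. *Hnrnpa2b1*, an RNA-binding protein of the nucleus, went from 3.42 in the control to 4.58 at 4 h (1.16 ± 0.20), and *Srsf10*, a splicing regulator, from 0.19 in the control to 1.22 at 4 h (1.03 ± 0.20), although another of its 3 measured probes gave -0.47. Of 47 measured chromatin enzymes of the lysine demethylase, deacetylase and methyltransferase families 1 rose, *Kdm6b*, a demethylase of repressive histone marks (1.58 ± 0.20), and 5 fell, among them the deacetylase *Hdac10* (-1.35 ± 0.21). These were 2.13% and 10.6%, against 8.13% and 9.61% of all measured genes. Of 30 autophagy genes 2 rose, *Sqstm1* and *Gabarapl1* (1.52 ± 0.20), and 2 fell, *Bnip3* (-1.08 ± 0.20) and *Atg5* (-1.0 ± 0.20). Both shares, 6.67%, lay below those of all measured genes.

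Genes of TGF-beta and BMP feedback as a group lay near all genes, with a median -0.04 from theirs. Their shares past 2-fold were 3.33% up and 10.0% down, against 8.13% and 9.61% of all measured genes. Of 30 measured members 1 rose, the corepressor *Tgif1* (1.58 ± 0.20), and 3 fell, the inhibitory Smad *Smad6* (-2.22 ± 0.23), the ligand *Tgfb3* (-2.03 ± 0.20) and *Id4* (-1.14 ± 0.24), while *Id1* had -0.13 ± 0.20 and *Smad7* 0.13 ± 0.20. Of 17 antigen presentation genes 1 rose and 1 fell, 5.88% each and below the shares of all measured genes. The rise was that of *H2-DMa*, which edits peptides on class II molecules. It went from -3.68 in the control to -0.11 at 4 h (3.57 ± 0.26), while *Cd74*, the invariant chain of class II, had 0.91 ± 0.28 and the class I gene *H2-T23* 0.68 ± 0.20. In the hypoxia list 2 of 21 rose, *Ndrg1* (2.65 ± 0.20) and *Vegfa* (1.20 ± 0.20), and 1 fell. These shares, 9.52% and 4.76%, were near and below those of all measured genes.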
